A study of Homo sapiens with 12 samples.

Results

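Wild type HepG2 cells that had received copper for 24 h were compared with wild type HepG2 cells left untreated. The comparison takes 6 of the 12 libraries of the series, 3 per group, picked by their titles, and spans every one of the 11051 genes that had enough counts to be tested. HepG2 is a human cell line from a hepatocellular carcinoma that still makes many plasma proteins of the liver. By their label these cells carry no edit of ATP7B, the gene of a copper exporter. The other 6 libraries come from 1 HepG2 line with an ATP7B knockout (KO), untreated or given copper for 24 h, and enter here through the shared estimate of the spread and a test of the difference between the lines. The labels name the metal as Cu without its salt or dose. They call the replicates biological but do not say that the cultures were separate, so p-values measure the spread between these libraries, which may be technical. By its title, the study concerns autophagy as a means of survival in Wilson disease, in which ATP7B is mutated.

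Copper is an essential cofactor that damages cells when it is free and in excess. Liver cells take it up, hand it to chaperones and enzymes, load it on ceruloplasmin for the blood and export the surplus into bile through ATP7B. Excess metal raises free zinc and so activates the factor MTF1, which binds metal response elements and turns on metallothioneins, small cysteine-rich proteins that bind copper and zinc. Copper also attacks protein thiols, which engages the heat shock factor HSF1 and its chaperone genes, and the factor NRF2 with its glutathione and thioredoxin genes.

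Library totals were 3561723 to 3829151 counts untreated and 1873703 to 2581954 with copper. Levels are given as CPM, the gene's count scaled to a library of 1000000, and 3 counts equalled 0.783 to 0.842 CPM untreated and 1.16 to 1.60 CPM with copper. The libraries are named untreated 1, 2 and 3 and copper 1, 2 and 3 by their replicate numbers. Log2 CPM correlated across genes at 0.985 to 0.987 between the untreated libraries and at 0.972 between copper 2 and 3, but at 0.935 and 0.908 between copper 1 and these. Copper 1 and the ATP7B KO untreated replicates 1 and 2 are called the libraries that stood apart, and the main results are also given without them. For the KO this name does not say which replicate is unusual. KO untreated replicates 1, 2 and 3 held 1443372, 976658 and 3277087 counts. Replicate 3 lay farthest from the others in MT2A (60.3, 29.7 and 520 CPM) and SQSTM1 (808, 744 and 299 CPM). In ATP7B (9.01, 2.05 and 11.6 CPM) it was replicate 2. The fit without these libraries keeps KO untreated replicate 3 alone. The libraries left out were picked by their values in these same data. Without them the biological coefficient of variation that all groups share was 8.45%, against 29.1% with all 12 libraries. Calls in that fit are therefore no independent check. The share of counts from the mitochondrial genome was 2.97% to 3.80% untreated and 6.58% to 8.59% with copper. The part of lower depth, of this mitochondrial share and of copper 1 in the results that follow was not tested. The 12 hepatocyte markers were all detected and summed to 25747 to 26187 CPM untreated and 11034 to 12641 CPM with copper. Of 8 endothelial markers none reached 2 CPM in any of the 6 libraries, and 6 of 10 fibroblast and 7 of 10 leukocyte markers also stayed under 2 CPM. The fibroblast list summed to 19.5 to 26.1 CPM untreated and 15.1 to 45.9 CPM with copper. LYZ, a lysozyme gene, made up most of the leukocyte sum of 1365 to 1490 CPM untreated and 331 to 877 CPM with copper, while the T cell gene CD3E and the B cell gene MS4A1 were listed at 0. Of 3 leukocyte markers tested 1 rose and 1 fell at the threshold given below. Leaving out any 1 wild type library ended the rise, and the fall was kept only without copper 3.

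Of the 11051 genes 1648 (14.9%) differed between copper and untreated libraries at an adjusted p under 0.05, and these are called genes. Among them 910 rose (8.23%) and 738 fell (6.68%), and the median log2 fold change of all genes tested was -0.03. The word "rose" or "fell" is used of called genes only, and errors of log2 fold changes are standard errors of the fit. They compare 3 libraries per group but take the spread from all 12 libraries, KO included. Medians of gene lists are medians of the log2 fold change over tested members. Large changes were more often rises: 234 genes rose and 96 fell by at least 4-fold, and 57 rose and 4 fell by at least 16-fold. The typical size differed mainly at low levels. Among the 2763 genes of lowest mean CPM (up to 8.34), 224 rose (median log2 fold change 2.39) and 90 fell (median -1.88). Medians of rises and falls were similar in size at 8.34 to 22.4 CPM (1.40 and -1.42). The same held at 22.4 to 61.8 CPM (1.12 and -1.20) and from 61.9 CPM upwards (1.09 and -1.03). The genes that rose took 7.23% to 8.15% of the counts in the untreated libraries and 19.6% to 21.6% in the copper libraries. Those that fell took 11.9% to 12.2% untreated and 5.06% to 5.60% with copper. Since the same libraries chose these genes, the shares describe the size of the response and test nothing. CPM values of the 2 groups did not overlap for 48.4% of all genes tested, with copper higher for 21.3% and lower for 27.1%.

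**Figure D1:**
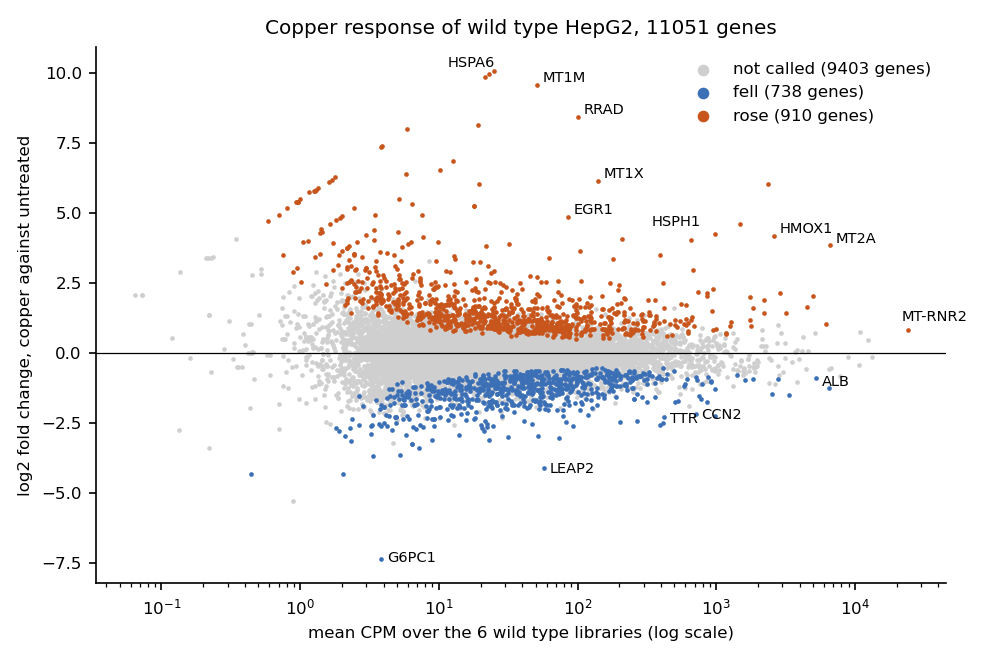
Mean CPM over the 6 wild type libraries on a log scale against the log2 fold change of copper over untreated for 11051 genes, 1 point per gene, with the 910 genes that rose in orange, the 738 that fell in blue and the rest in grey. Of the labelled genes HSPA6, MT1M and RRAD lie highest and G6PC1 lowest, and the highly expressed MT2A and HMOX1 lie well above 0.

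How many genes passed the test depended on the libraries. Without the libraries that stood apart, 4701 genes were called (42.5%), all of the 1648 among them, and without untreated 1, 2 or 3 the count was 758, 743 or 820. Without copper 1, 2 or 3 it was 1061, 865 or 1405, and 619 genes were called in all 6 of these fits. Where the count of a gene list in 1 direction was 2 or more and moved by more than 1.5 times when a library, or the libraries that stood apart, were left out, the new counts are given beside it. A count of 1 rests on 1 gene and mostly carries none: of the 26 counts of 1 in the lists, 18 went to 0 in at least 1 of these 6 fits, and without the libraries that stood apart they were 1 to 10. Counts of 0 were 0 to 3 in the 6 fits, and without the libraries that stood apart they were 0 to 30, the highest of them the falls of the ribosomal proteins. Where edgeR gave 0 calls in 1 direction for a list, at most 2 members passed in that direction at an unadjusted p under 0.05, and at most 2 by DESeq2 or limma voom, apart from the ribosomal proteins, whose counts are given with them. The background without the libraries that stood apart was 21.2% for rises and 21.3% for falls. Of the genes that are described as not called, MT1A, SLC30A1, ATOX1, HSP90AB1, PSMB5, HSPA5, SRXN1, FTL, JUND, CDKN1A and GAPDH were called in that fit, all in the direction given, while NQO1 (0.04) and MDM2 (0.14) changed sign and were not called.

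**Figure D2:**
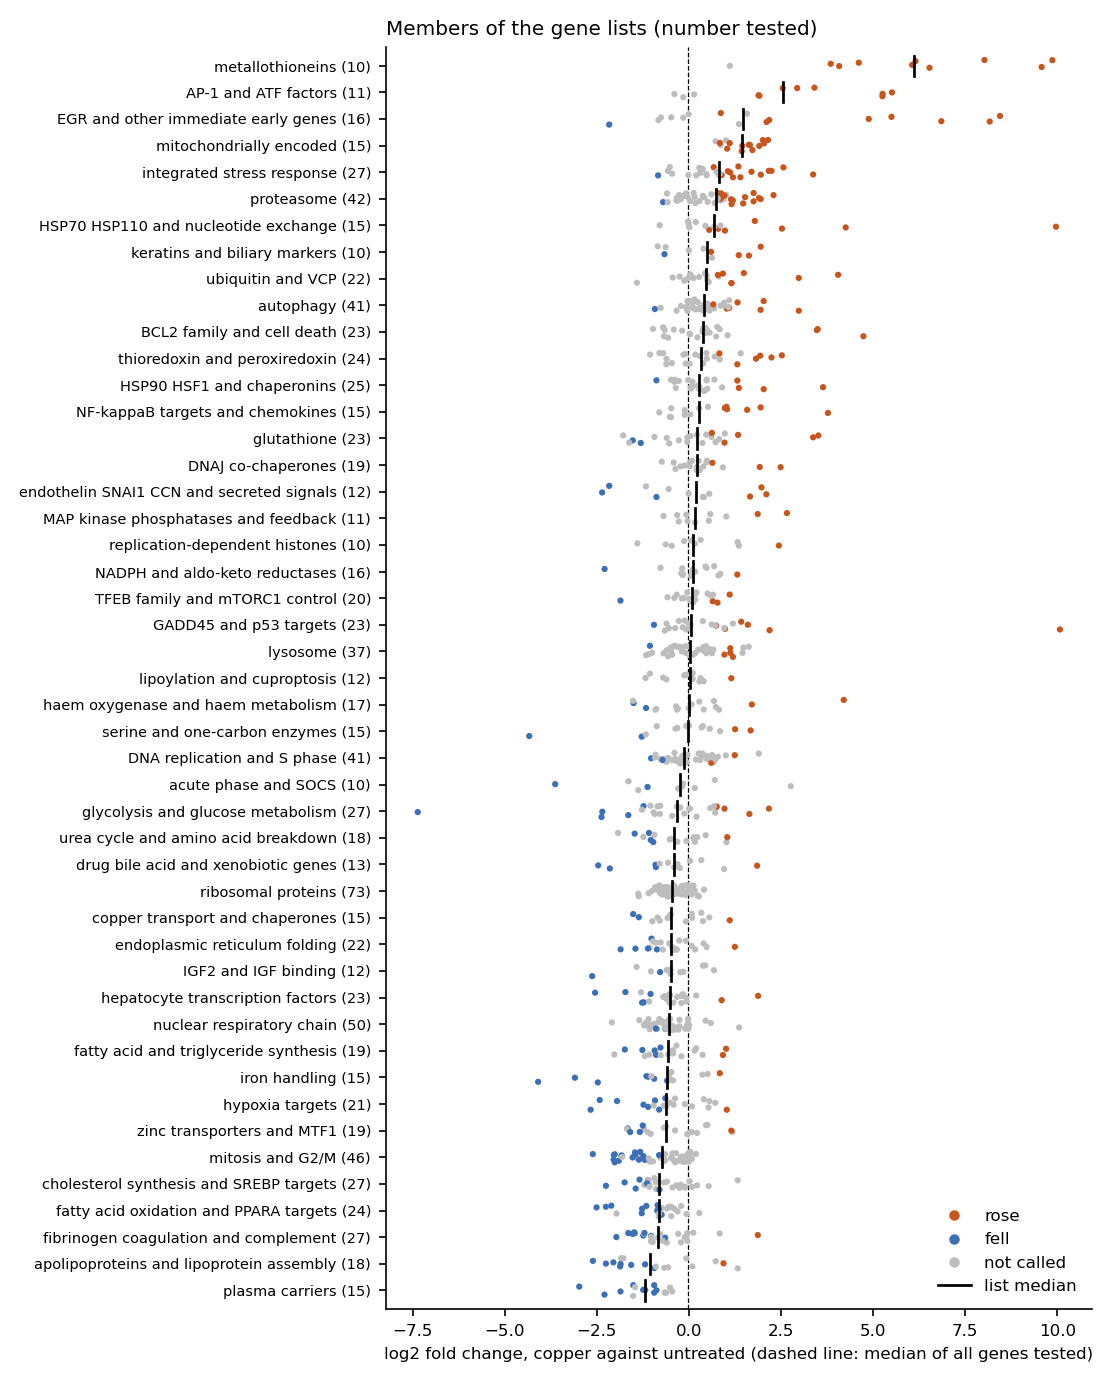
Log2 fold change of copper over untreated for each tested member of the gene lists, 1 point per gene, orange where it rose, blue where it fell and grey where it was not called, with a black bar at the median of each list and lists ordered by it. Metallothioneins (median 6.10) and AP-1 factors (median 2.54) are at the top, and plasma carriers (median -1.19) and apolipoproteins (median -1.07) at the bottom.

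Metallothioneins had the highest median of the lists. Of the 10 members tested 9 rose, with a median of 6.10, and 3 more had too few counts to test. The promoters of those that RefSeq lists are printed first, to show the letters of the metal response element. Whether the element acted in these cells was not tested. The table holds 4 of the 10 tested members, and the letters are the 200 bases before the first listed start, 5′ to 3′ on the gene's own strand, in the GRCh38.p14 build. Capitals mark the core of the metal response element, spelled TGCACNC or TGCGCNC and searched on both strands. The 4 promoters are those of MT2A (chr16:56608384-56608583, plus strand), MT1X (chr16:56682270-56682469, plus strand), MT1B (chr16:56651686-56651885, plus strand) and MT1H (chr16:56669614-56669813, plus strand).
MT2A: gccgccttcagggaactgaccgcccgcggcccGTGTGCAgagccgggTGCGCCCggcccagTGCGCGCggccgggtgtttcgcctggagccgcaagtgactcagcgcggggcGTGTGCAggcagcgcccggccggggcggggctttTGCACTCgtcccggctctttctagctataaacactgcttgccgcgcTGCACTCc
MT1X: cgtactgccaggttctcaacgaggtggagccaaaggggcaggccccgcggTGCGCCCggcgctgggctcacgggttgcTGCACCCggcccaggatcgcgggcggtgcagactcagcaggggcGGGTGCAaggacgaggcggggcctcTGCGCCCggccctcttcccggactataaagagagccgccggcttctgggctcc
MT1B: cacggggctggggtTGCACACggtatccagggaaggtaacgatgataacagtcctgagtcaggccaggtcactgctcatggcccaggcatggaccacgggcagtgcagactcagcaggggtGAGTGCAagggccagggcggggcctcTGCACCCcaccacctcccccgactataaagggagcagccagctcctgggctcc
MT1H: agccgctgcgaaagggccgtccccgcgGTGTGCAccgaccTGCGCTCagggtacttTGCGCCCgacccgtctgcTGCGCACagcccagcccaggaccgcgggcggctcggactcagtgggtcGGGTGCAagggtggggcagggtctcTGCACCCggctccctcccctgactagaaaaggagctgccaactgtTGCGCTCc
The core occurred 6 times in MT2A, 4 times in MT1X, 3 times in MT1B and 7 times in MT1H. Of all promoters listed 21.4% held at least 1 core and 4.91% at least 2, and among tested genes 29.8% and 7.65% did. At least 1 core was in 28.3% of the genes that rose and 25.6% of those that fell. Each of the 4 metallothionein promoters held at least 2. The same stretches can hold other motifs, and 2 of the 4 held the AP-1 site and 2 the antioxidant core that are spelled further on. A match is a description of letters and not a binding site.

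MT2A, the metallothionein with the most counts here, was at 835, 940.2 and 815 CPM untreated and 4420.1, 14472 and 17964 CPM with copper. All copper libraries were above all untreated ones, with copper 1 lowest by a wide margin. MT2A rose (log2 fold change 3.85 ± 0.85, adjusted p = 0.011), and the call ended without untreated 1, 2 or 3 (adjusted p 0.052 to 0.054). MT1G showed the same layout with 71.2, 63.2 and 79.5 CPM untreated and 2100.1, 5545 and 6415 CPM with copper (log2 fold change 6.06 ± 0.75, adjusted p = 0.00045). MT1E was at 121, 113 and 119.6 CPM untreated and 639, 3237 and 4657 CPM with copper and rose (log2 fold change 4.61 ± 0.95). In each of these 3 genes copper 1 was below copper 2 and 3 by more than 2-fold.

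MT1X was the most even of the family, at 5.01, 3.13 and 3.65 CPM untreated and 274, 287 and 272 CPM with copper (log2 fold change 6.15 ± 0.31, adjusted p = 3.2e-07), with its copper libraries close together. MT1F was at 25.6, 24.03 and 21.1 CPM untreated and 254, 403 and 520.1 CPM with copper and rose (log2 fold change 4.08 ± 0.36). MT1M, MT1B, MT1H and MT1HL1 were almost silent without copper. With copper, MT1B was at least 168-fold higher and MT1HL1 at least 45.3-fold higher than untreated libraries without a single count, taking 3 counts over the untreated group as the floor. MT1H had 144 counts against 2 (119-fold, 95% counting interval 32.4 to 994), and MT1M had 734 against 1 (1216-fold, 95% counting interval 218 to 48096). MT1A was the tested member not called, at 7.91, 5.75 and 6.74 CPM untreated and 6.40, 13.5 and 22.9 CPM with copper (log2 fold change 1.11 ± 0.57, adjusted p = 0.21). Its copper 1 value lay within the untreated range, and without the libraries that stood apart all 10 tested members rose. Metallothioneins are near-identical copies, so a read may have been counted for a neighbour and single members are uncertain.

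**Figure D3:**
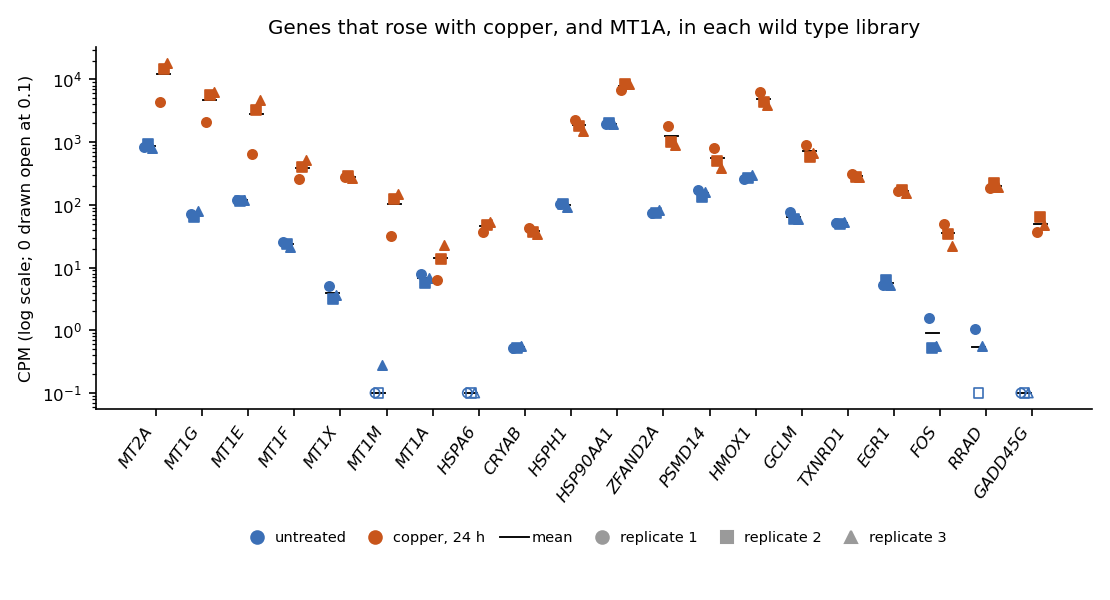
CPM on a log scale in each wild type library for 19 genes that rose with copper and for MT1A, with untreated libraries in blue, copper libraries in orange, replicates by marker shape and a bar at each group mean. Values of 0 are drawn open at 0.1. Copper 1 is the lowest copper library for 6 of the 7 metallothioneins shown, and the highest for HMOX1, HSPH1, ZFAND2A and PSMD14.

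Of 19 zinc transporter genes and MTF1 tested, 4 fell and 1 rose, with a median of -0.62 (for the falls, 2, 1 and 1 without untreated 1, 2 and 3 and 2 without copper 1 or 2, 8 without the libraries that stood apart). SLC39A14, a zinc, manganese and iron importer, was at 229, 242 and 238 CPM untreated and 58.2, 69.3 and 102 CPM with copper and fell (log2 fold change -1.60 ± 0.22, adjusted p = 0.00073), with no overlap between the groups. MTF1, the metal-sensing factor itself, was the member that rose, from 8.17, 7.83 and 6.74 to 22.4, 15.7 and 12.01 CPM (log2 fold change 1.15 ± 0.31, adjusted p = 0.029), and its call ended without untreated 1, 2 or 3 or copper 1 or 2 (adjusted p 0.067 to 0.11). SLC30A1, a zinc exporter that MTF1 is known to induce, was at 13.4, 18.5 and 12.4 CPM untreated and 19.7, 30.9 and 48.03 CPM with copper (log2 fold change 1.18 ± 0.43, adjusted p = 0.084). Its promoter (chr1:211579162-211579361, minus strand) held 1 core, shown in capitals.
SLC30A1: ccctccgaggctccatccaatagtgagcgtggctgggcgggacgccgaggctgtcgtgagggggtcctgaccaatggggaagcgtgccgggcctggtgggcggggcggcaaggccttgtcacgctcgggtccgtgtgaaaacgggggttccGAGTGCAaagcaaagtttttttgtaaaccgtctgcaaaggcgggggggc
The groups did not overlap for SLC30A1, but it was not called with all 12 libraries, and it was called without the libraries that stood apart. Among 15 genes of copper transport 2 fell and 1 rose, with a median of -0.49 (for the falls, 1 without untreated 1, 2 or 3 and 1 without copper 2, 5 without the libraries that stood apart). CP, which encodes ceruloplasmin, the copper-carrying ferroxidase of plasma, was at 255, 239 and 233 CPM untreated and 80.1, 94.1 and 104 CPM with copper and fell (log2 fold change -1.36 ± 0.29, adjusted p = 0.0085). ATP7B was at 12.7, 13.1 and 12.4 CPM untreated and 5.34, 3.92 and 3.87 CPM with copper and fell (log2 fold change -1.51 ± 0.41, adjusted p = 0.026), although that call ended without untreated 1, 2 or 3 or copper 2 or 3 (adjusted p 0.072 to 0.099). The importer SLC31A1 was at 165, 153 and 156 CPM untreated and 175, 147 and 169 CPM with copper and the copper chaperone ATOX1 at 65.9, 62.4 and 69.1 CPM untreated and 88.1, 45.8 and 48.8 CPM with copper. The groups overlapped in both, with log2 fold changes of 0.08 ± 0.20 and -0.08 ± 0.29, but ATOX1 was called without the libraries that stood apart (log2 fold change -0.42, adjusted p = 0.016). The member that rose was MT-CO2, the mitochondrially encoded subunit of cytochrome oxidase that holds a copper centre, from 883, 686 and 899.9 to 1012, 2088 and 2138 CPM (log2 fold change 1.11 ± 0.33, adjusted p = 0.043), and its call ended without untreated 1, 2 or 3 or copper 2 or 3 (adjusted p 0.11 to 0.16).

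Inducible chaperones of the cytosol had the largest rises among chaperone genes. HSPA6, an HSP70 that is silent in unstressed cells, had 0 untreated counts, was at 36.8, 47.5 and 53.4 CPM with copper and so was at least 174-fold higher. CRYAB, the small heat shock protein alpha B crystallin, was at 0.527, 0.522 and 0.562 CPM untreated and 42.7, 37.5 and 34.5 CPM with copper (log2 fold change 6.06 ± 0.27, adjusted p = 1e-07). HSPH1, the HSP110 that exchanges nucleotide on HSP70, was at 102, 103 and 91.2 CPM untreated and 2219, 1824 and 1499.6 CPM with copper (log2 fold change 4.25 ± 0.27, adjusted p = 2.8e-06). In all 3 the groups were far apart, and in CRYAB and HSPH1 copper 1 was the highest library. Of 15 HSP70, HSP110 and exchange factor genes 7 rose and none fell, with a median of 0.68 (3, 3 and 4 without untreated 1, 2 and 3 and 3 and 4 without copper 1 and 3). BAG3, which links HSP70 clients to autophagy, was at 19.8, 15.1 and 18.2 CPM untreated and 88.1, 83.2 and 129 CPM with copper and rose (log2 fold change 2.52 ± 0.31). HSPA8, the constitutive HSP70, was at 44.6, 48.6 and 68.5 CPM untreated and 255, 171 and 120.1 CPM with copper and rose (log2 fold change 1.79 ± 0.42), and its call ended without untreated 1 or 2 or copper 1 (adjusted p 0.056 to 0.071). Of 19 DNAJ co-chaperones, which feed clients to HSP70, 3 rose and none fell, with a median of 0.21 (9 without the libraries that stood apart). DNAJB1 was at 126, 136 and 117 CPM untreated and 786, 651 and 650.3 CPM with copper (log2 fold change 2.49 ± 0.35, adjusted p = 0.00081) and DNAJA1 at 42.7, 45.2 and 41.8 CPM untreated and 194, 133 and 155 CPM with copper (log2 fold change 1.92 ± 0.24, adjusted p = 0.00045).

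The inducible HSP90 and some of its co-chaperones rose. Among 25 genes of HSP90, its co-chaperones, HSF1 and the chaperonins, 4 rose and 1 fell, with a median of 0.28 (for the rises, 14 without the libraries that stood apart). HSP90AA1, the inducible HSP90, was at 1952, 2031 and 1942 CPM untreated and 6850.1, 8503 and 8405 CPM with copper and rose (log2 fold change 2.03 ± 0.22). It was the nuclear gene with the largest gain in CPM after MT2A. HSP90AB1, the constitutive form, started at 10604, 10683 and 10121 CPM and was at 15922, 13373 and 13695 CPM with copper (log2 fold change 0.48 ± 0.22, adjusted p = 0.17), so the groups did not overlap but the gene was not called. CHORDC1, an HSP90 co-chaperone that binds zinc, was at 17.9, 14.9 and 14.04 CPM untreated and 162, 194 and 219 CPM with copper and rose (log2 fold change 3.64 ± 0.36). FKBP4, an immunophilin of the HSP90 cycle, rose (log2 fold change 1.31 ± 0.27). The mitochondrial chaperonin HSPD1 had a log2 fold change of 0.06 ± 0.21 and was not called, and the mitochondrial HSP90 TRAP1 fell (log2 fold change -0.88 ± 0.19). HSPA1A and HSPA1B, near-identical HSP70 copies, had 0 counts in the 6 libraries, which says nothing of their expression, since a read that matches both copies can be lost in counting.

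HSPA6 and CHORDC1 are shown for the heat shock element, in which units of GAA and TTC alternate. Capitals mark runs of 3 units, spelled GAANNTTCNNGAA or TTCNNGAANNTTC and searched on both strands, in the 200 bases before the start of HSPA6 (chr1:161524340-161524539, plus strand) and CHORDC1 (chr11:90223050-90223249, minus strand).
HSPA6: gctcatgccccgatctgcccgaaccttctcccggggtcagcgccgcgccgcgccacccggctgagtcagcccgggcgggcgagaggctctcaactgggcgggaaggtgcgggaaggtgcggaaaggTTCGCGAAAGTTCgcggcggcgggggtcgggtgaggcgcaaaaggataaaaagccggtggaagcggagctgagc
CHORDC1: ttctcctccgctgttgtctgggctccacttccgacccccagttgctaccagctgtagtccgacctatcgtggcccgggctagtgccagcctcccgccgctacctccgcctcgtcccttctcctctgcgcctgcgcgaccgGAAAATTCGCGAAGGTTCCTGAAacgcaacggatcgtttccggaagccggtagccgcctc
HSPA6 held 1 such run and CHORDC1 held 3 that overlap. Of all promoters listed 0.348% held 1 or more, and among tested genes 0.221% did. The share was 0.446% among those that rose (3 of 672, HSPA6 and CHORDC1 included) and 0.174% among those that fell (1 of 574). These counts are too small to compare. HSPA6 and CHORDC1 do not stand for the chaperone genes, most of which lacked such a run in this window. It was in 2 of 13 HSP70, HSP110 and exchange factor genes with a promoter, 1 of 18 DNAJ genes and 2 of 20 genes of the HSP90 list. No small heat shock, ubiquitin and VCP or proteasome gene with a promoter held it. The shorter form of 2 units, GAANNTTC or TTCNNGAA, occurs inside the longer one and was in 9.31% of all promoters, 6.41% of tested genes, 9.38% of those that rose and 5.23% of those that fell.

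Of 22 ubiquitin and VCP genes 7 rose and none fell, with a median of 0.46 (14 without the libraries that stood apart). ZFAND2A, an arsenite-inducible proteasome adaptor also called AIRAP, was at 73.8, 73.6 and 83.7 CPM untreated and 1828, 1023 and 887 CPM with copper (log2 fold change 4.05 ± 0.42, adjusted p = 0.00014). Copper 1 was the highest library, and all 3 were far above the untreated ones. VCP, the ATPase that pulls ubiquitinated proteins out of complexes, was at 179.5, 193 and 202 CPM untreated and 433, 382 and 436 CPM with copper (log2 fold change 1.15 ± 0.18, adjusted p = 0.0016), and its cofactors NPLOC4 and UFD1 rose (log2 fold changes 1.15 ± 0.18 and 1.49 ± 0.32). UBXN4, which recruits VCP to the endoplasmic reticulum, rose (log2 fold change 0.79 ± 0.16).

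Of 42 proteasome genes 17 rose and 1 fell, with a median of 0.74 (for the rises, 8, 10 and 9 without untreated 1, 2 and 3, 31 without the libraries that stood apart). PSMD14, the deubiquitinase of the lid, was at 172, 135 and 158 CPM untreated and 811, 507 and 382 CPM with copper (log2 fold change 1.90 ± 0.29, adjusted p = 0.0013). ADRM1, a ubiquitin receptor, was at 92.3, 97.4 and 86.8 CPM untreated and 357, 359 and 332 CPM with copper (log2 fold change 1.95 ± 0.20, adjusted p = 0.00015), with its copper libraries close together. PSMD2, PSMD12 and PSMD1, scaffold subunits of the particle, rose (log2 fold changes 1.75 ± 0.23, 1.52 ± 0.16 and 1.47 ± 0.19). POMP, the assembly factor of the core, rose (log2 fold change 1.16 ± 0.21). PSMB5, a catalytic subunit of the core, was at 994, 1007 and 1111 CPM untreated and 1194, 1240.5 and 1274 CPM with copper. These groups did not overlap, but the gene was not called (log2 fold change 0.28 ± 0.20, adjusted p = 0.37). The member that fell was PSME1, a subunit of the interferon-inducible activator (log2 fold change -0.70 ± 0.18, adjusted p = 0.022), and its call ended without untreated 1, 2 or 3 or copper 2 or 3 (adjusted p 0.065 to 0.087).

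Of 22 folding genes of the endoplasmic reticulum 5 fell and 1 rose, with a median of -0.50 (for the falls, 2, 3 and 3 without untreated 1, 2 and 3 and 2 without copper 2, 14 without the libraries that stood apart). PDIA4, a disulfide isomerase, was at 425, 444 and 439 CPM untreated and 259, 179 and 154 CPM with copper (log2 fold change -1.11 ± 0.22, adjusted p = 0.006). CRTAP, part of the collagen prolyl hydroxylation complex, fell (log2 fold change -1.45 ± 0.30). HSPA5, the HSP70 of this compartment and the usual readout of its stress response, was at 3656, 3518 and 3634 CPM untreated and 1881, 2079.7 and 2260.3 CPM with copper. All 3 copper libraries were below all untreated ones, but the gene was not called (log2 fold change -0.77 ± 0.26, adjusted p = 0.061).

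HMOX1, which splits haem into biliverdin, carbon monoxide and iron, was at 259, 264 and 296 CPM untreated and 6385, 4409.5 and 3935 CPM with copper. It rose (log2 fold change 4.20 ± 0.35) (adjusted p = 2.7e-05), with copper 1 highest, and was among the 5 largest gains in CPM. SLC48A1, a haem transporter of the lysosome, was at 5.01, 4.70 and 7.02 CPM untreated and 20.3, 15.7 and 17.8 CPM with copper and rose (log2 fold change 1.71 ± 0.24). ALAD, a zinc enzyme of haem synthesis, was at 31.9, 29.5 and 35.4 CPM untreated and 11.7, 10.5 and 11.2 CPM with copper and fell (log2 fold change -1.50 ± 0.29). Of 17 haem genes these and 1 other were called, 2 in each direction (for the rises, 6 without the libraries that stood apart, and for the falls, 1 without untreated 3 and 1 without copper 2, 4 without the libraries that stood apart).

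Antioxidant genes rose in part. Of 23 glutathione genes 5 rose and 2 fell, with a median of 0.22 (for the rises, 3 without untreated 1, 2 or 3, 10 without the libraries that stood apart, and for the falls, 1 without untreated 2 or 3 and 1 without copper 2, 6 without the libraries that stood apart). SLC7A11, the transporter that brings in cystine for glutathione, was at 38.2, 31.9 and 27.2 CPM untreated and 378, 279 and 330.0 CPM with copper (log2 fold change 3.37 ± 0.24, adjusted p = 6.6e-06). GCLM and GCLC, the modifier and catalytic subunits of the enzyme that starts glutathione synthesis, rose (log2 fold changes 3.51 ± 0.31 and 0.96 ± 0.20). GCLM was at 75.7, 58.8 and 59.8 CPM untreated and 908, 579.9 and 681 CPM with copper and GCLC at 54.6, 55.6 and 56.2 CPM untreated and 82.2, 121 and 117 CPM with copper, and the groups did not overlap in either. GPX3, the glutathione peroxidase of plasma, was at 60.4, 64.5 and 63.5 CPM untreated and 30.4, 20.9 and 13.2 CPM with copper and fell (log2 fold change -1.53 ± 0.33). GCLM's promoter (chr1:93909431-93909630, minus strand) is printed with the core of the antioxidant response element in capitals, spelled TGACNNNGC and searched on both strands.
GCLM: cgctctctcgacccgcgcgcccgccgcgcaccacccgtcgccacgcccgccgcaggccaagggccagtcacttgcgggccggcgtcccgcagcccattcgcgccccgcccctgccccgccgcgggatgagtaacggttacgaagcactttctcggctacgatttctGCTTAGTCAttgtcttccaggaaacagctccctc
It held 1 match, read on the opposite strand. The core was in 9.38% of all promoters, 10.6% of tested genes, 13.2% of those that rose and 9.06% of those that fell. It was in 10 of the 37 proteasome genes with a promoter (27.0%) and in 6 of the 18 glutathione genes (33.3%). Similar shares were found in 6 of 17 ubiquitin and VCP genes (35.3%) and 5 of 17 genes of the zinc transporter list (29.4%). The core was in only 2 of 19 thioredoxin genes (10.5%) and 2 of 14 haem genes (14.3%). The AP-1 site TGACTCA, which can overlap this core, was in 3.48% of all promoters, 1.90% of tested genes, 4.91% of those that rose and 1.57% of those that fell.

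In the thioredoxin group 6 of 24 rose and none fell, with a median of 0.34 (12 without the libraries that stood apart). TXNRD1, the selenium enzyme that reduces thioredoxin, was at 50.6, 50.1 and 53.9 CPM untreated and 313, 278 and 279.6 CPM with copper (log2 fold change 2.52 ± 0.19, adjusted p = 1.1e-05). The copper libraries lay close together and far above the untreated ones. OSGIN1 and the small MAF proteins MAFF and MAFK, which pair with NRF2, rose (log2 fold changes 1.82 ± 0.25, 1.93 ± 0.24 and 1.31 ± 0.19). NQO1 and SRXN1, both textbook NRF2 targets, were not called. NQO1, a quinone reductase, was at 279, 278 and 272 CPM untreated and 182, 259.7 and 285 CPM with copper (log2 fold change -0.17 ± 0.38, adjusted p = 0.81), and SRXN1, which repairs peroxiredoxins, was at 93.8, 91.7 and 75.5 CPM untreated and 75.8, 223 and 381 CPM with copper (log2 fold change 1.40 ± 0.79, adjusted p = 0.26). SRXN1 lay within the untreated range in copper 1 and far above it in copper 2 and 3, while for NQO1 copper 1 and 2 lay below the untreated libraries and copper 3 above them. Of 16 NADPH enzymes and aldo-keto reductases 1 rose, AKR1B1 (log2 fold change 1.31 ± 0.25, adjusted p = 0.0052), and 1 fell, the bile acid enzyme AKR1D1 (log2 fold change -2.29 ± 0.46, adjusted p = 0.0067) (for the rises, 8 without the libraries that stood apart).

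Iron genes fell in 7 of 15 cases and rose in 1, with a median of -0.59. HAMP, the gene of the hormone hepcidin that shuts the iron exporter, was at 35.3, 45.2 and 44.4 CPM untreated and 2.13, 3.05 and 8.52 CPM with copper. LEAP2, a liver peptide hormone, was at 108, 124 and 94.9 CPM untreated and 3.20, 6.97 and 8.13 CPM with copper and had the largest fall of the genes with a mean of at least 5 CPM (log2 fold change -4.09 ± 0.28, adjusted p = 5e-06). ID1, a target of the BMP signal that also drives hepcidin, was at 343, 361 and 321 CPM untreated and 33.6, 60.6 and 86.8 CPM with copper (log2 fold change -2.47 ± 0.50, adjusted p = 0.0073), and HAMP itself fell (log2 fold change -3.10 ± 0.59). In all 3 the groups were far apart, with copper 1 lowest and copper 3 highest of the copper libraries. SLC11A2, an iron importer, and TF, the plasma iron carrier transferrin, fell (log2 fold changes -1.16 ± 0.20 and -0.94 ± 0.20). FTH1, the iron-storing heavy ferritin chain, was the member that rose (log2 fold change 0.84 ± 0.20, adjusted p = 0.015), and its call ended without untreated 1, 2 or 3 (adjusted p 0.057 to 0.07). The light chain FTL had a log2 fold change of 0.37 ± 0.42 (adjusted p = 0.59).

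Immediate early transcription factors were high 24 h after copper was added. Of 11 AP-1 and ATF factors 8 rose and none fell, with a median of 2.54, and 8 were called whichever wild type library was left out. FOS was at 1.58, 0.522 and 0.562 CPM untreated and 49.6, 34.4 and 21.7 CPM with copper and FOSB at 1.05, 0.783 and 0.842 CPM untreated and 39.5, 31.4 and 34.9 CPM with copper, and both rose (log2 fold changes 5.25 ± 0.51 and 5.25 ± 0.32). JUN was at 145, 139 and 131 CPM untreated and 548, 501 and 460.1 CPM with copper and rose (log2 fold change 1.89 ± 0.18). JUN started from a far higher level than the FOS genes, and no group overlapped with the other in these 3. ATF3, a stress factor that forms dimers with JUN, was at 6.06, 5.48 and 5.90 CPM untreated and 42.2, 44.9 and 44.9 CPM with copper (log2 fold change 2.94 ± 0.30, adjusted p = 0.00012). JUNB was at 10.8, 10.97 and 10.7 CPM untreated and 30.4, 125 and 184 CPM with copper and rose (log2 fold change 3.40 ± 0.55), with copper 1 far below copper 2 and 3. FOSL1 and JDP2, another pair of AP-1 proteins, rose (log2 fold changes 2.54 ± 0.45 and 1.91 ± 0.22). JUND had a log2 fold change of -0.16 ± 0.36 and was not called, but it was without the libraries that stood apart (log2 fold change -0.39, adjusted p = 0.0043).

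Among 16 EGR and other immediate early genes 8 rose and 1 fell, with a median of 1.47 (for the rises, 5 without untreated 2). EGR1, a zinc finger factor induced by growth and stress signals, was at 5.27, 6.27 and 5.33 CPM untreated and 167, 173 and 153 CPM with copper and rose (log2 fold change 4.88 ± 0.21, adjusted p = 1e-07), with the copper libraries close together. RRAD, a small GTPase, was at 1.05, 0 and 0.562 CPM untreated and 183, 225 and 191 CPM with copper (log2 fold change 8.44 ± 0.45, adjusted p = 5e-07). ARC, known from synapses, had 263 counts against 1 (436-fold, 95% counting interval 77.5 to 17275), and VGF, a secreted neuropeptide precursor, had 180 against 2 (149-fold, 95% counting interval 40.7 to 1241). IER5L rose (log2 fold change 2.18 ± 0.37). The member that fell was CCN2, a matricellular growth factor driven by YAP and TGF-beta signals, from 1152, 1182 and 1162 to 157, 296 and 314 CPM (log2 fold change -2.17 ± 0.31, adjusted p = 0.00096). Of the phosphatases that turn MAP kinases off, DUSP5 was at 5.54, 5.75 and 3.93 CPM untreated and 20.8, 39.2 and 35.2 CPM with copper and rose (log2 fold change 2.66 ± 0.34), and 1 other of 11 rose (1 without untreated 1, 2 or 3 and 1 without copper 1).

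The 3 GADD45 genes, which bind stress kinases and cell cycle proteins, all rose. GADD45G had 0 untreated counts, was at 36.3, 64.1 and 48.4 CPM with copper and so was at least 188-fold higher. GADD45A was at 83.8, 91.1 and 92.4 CPM untreated and 268, 262 and 264 CPM with copper and GADD45B at 30.6, 26.6 and 22.2 CPM untreated and 85.9, 121 and 149.5 CPM with copper, and they rose (log2 fold changes 1.60 ± 0.22 and 2.19 ± 0.30). The p53 targets CDKN1A and MDM2 on the same list were not called. CDKN1A, the cell cycle inhibitor p21, was at 81.5, 81.7 and 64.6 CPM untreated and 105, 122 and 117 CPM with copper (log2 fold change 0.61 ± 0.33, adjusted p = 0.23), and MDM2 had a log2 fold change of -0.12 ± 0.28 (adjusted p = 0.82). The whole list of 23 had 6 rises, 1 fall and a median of 0.04 (for the rises, 3 without untreated 1 or 2 and 3 without copper 2, 10 without the libraries that stood apart).

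In the BCL2 family 3 of 23 genes rose and none fell, with a median of 0.38 (7 without the libraries that stood apart). PMAIP1, the killer protein NOXA, was at 2.37, 1.83 and 2.25 CPM untreated and 12.8, 26.1 and 32.1 CPM with copper (log2 fold change 3.47 ± 0.53, adjusted p = 0.0014). HRK, another killer of this family, had 8 counts with copper against 0 and was at least 4.42-fold higher. Among NF-kappaB genes and chemokines 6 of 15 rose and none fell, with a median of 0.28 (3 without untreated 1 or 3). RELB and NFKB2, which pair in the non-canonical branch of the pathway, were at 17.7, 20.9 and 21.3 CPM untreated and 69.4, 50.5 and 55.8 CPM with copper and at 5.80, 6.53 and 6.18 CPM untreated and 37.9, 16.1 and 16.7 CPM with copper. They rose (log2 fold changes 1.58 ± 0.30 and 1.94 ± 0.38), and in both copper 1 was the highest library. NFKBIA, the inhibitor that the canonical branch induces, had a log2 fold change of -0.49 ± 0.58 and was not called (adjusted p = 0.61).

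The integrated stress response, in which phosphorylated eIF2 favours the factor ATF4, had 13 rises and 1 fall among 27 genes, with a median of 0.81 (for the rises, 7, 8 and 7 without untreated 1, 2 and 3, 22 without the libraries that stood apart). SESN2, which restrains mTORC1 when leucine is short, was at 74.1, 65.03 and 70.5 CPM untreated and 289, 344 and 339 CPM with copper (log2 fold change 2.24 ± 0.18, adjusted p = 1.7e-05). PPP1R15A, the phosphatase subunit GADD34 that reverses the signal, was at 27.4, 30.8 and 34.8 CPM untreated and 239, 159 and 141 CPM with copper and rose (log2 fold change 2.56 ± 0.30). The groups did not overlap in either gene. The tRNA synthetase genes CARS1 and WARS1 rose (log2 fold changes 1.95 ± 0.19 and 1.12 ± 0.19), and VLDLR, a lipoprotein receptor, rose (log2 fold change 2.16 ± 0.38). EIF2AK1, the haem-sensing kinase of eIF2, was the member that fell, from 310.3, 305 and 346 to 189, 176 and 162 CPM (log2 fold change -0.84 ± 0.16, adjusted p = 0.0055). Serine and one-carbon enzymes had 2 rises and 2 falls among 15, with a median of -0.03, or 0.30 without the libraries that stood apart (for the rises, 1, 0 and 1 without untreated 1, 2 and 3 and 0 without copper 1, 8 without the libraries that stood apart, and for the falls, 1 without untreated 1, 2 or 3 and 1 without copper 1 or 2, 6 without the libraries that stood apart). GNMT, which burns surplus methyl groups in liver, had 44 counts untreated and 1 with copper (26.6-fold lower, 95% counting interval 4.52 to 1072).

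Of 41 autophagy genes 7 rose and 1 fell, with a median of 0.39 (for the rises, 4 without untreated 1 or 2 and 4 without copper 2, 16 without the libraries that stood apart). SQSTM1, the cargo receptor p62, was at 151, 149 and 165 CPM untreated and 1584, 1099.8 and 906 CPM with copper. GABARAPL1, a conjugated protein of the autophagosome membrane, was at 61.7, 55.4 and 61.8 CPM untreated and 225, 249.7 and 241 CPM with copper, and TAX1BP1, another cargo receptor, at 229.9, 223 and 237 CPM untreated and 426, 519 and 502 CPM with copper. Each of these separated the groups, with log2 fold changes of 2.98 ± 0.37, 2.03 ± 0.28 and 1.09 ± 0.16. ATG2A, a lipid transfer protein of the growing membrane, rose (log2 fold change 1.03 ± 0.21). MAP1LC3B, the gene of LC3B, was at 59.8, 52.2 and 50.5 CPM untreated and 73.1, 146 and 179.7 CPM with copper and rose (log2 fold change 1.32 ± 0.36), with copper 1 near the untreated level, and its call ended without untreated 1, 2 or 3 or copper 2 or 3 (adjusted p 0.085 to 0.11). The receptor NBR1 was at 271, 272 and 254 CPM untreated and 86.5, 151 and 175 CPM with copper and fell (log2 fold change -0.93 ± 0.27), and this call ended without untreated 1, 2 or 3 or copper 1 or 2 (adjusted p 0.09 to 0.12). Receptors for cargo thus moved both ways, up for SQSTM1 and TAX1BP1 and down for NBR1.

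Of 37 lysosome genes 4 rose and 1 fell, with a median of 0.02 (for the rises, 1, 2 and 1 without untreated 1, 2 and 3 and 2 without copper 1 or 2, 13 without the libraries that stood apart). Of all genes tested 8.23% rose, so 4 of 37 is near the background. The 4 that rose encode subunits of the proton pump. ATP6V0A1, among them, was at 35.6, 25.6 and 29.8 CPM untreated and 69.9, 73.6 and 60.8 CPM with copper (log2 fold change 1.19 ± 0.21, adjusted p = 0.0036). TFEB, the master factor of lysosomal genes, was at 10.02, 10.2 and 14.04 CPM untreated and 16.5, 7.41 and 6.97 CPM with copper and was not called (log2 fold change -0.14 ± 0.42, adjusted p = 0.86). FNIP2, which with folliculin governs TFEB through the Rag GTPases, was at 85.9, 76.5 and 89.3 CPM untreated and 14.9, 25.3 and 27.5 CPM with copper and fell (log2 fold change -1.86 ± 0.30, adjusted p = 0.0021). In the list of 20 TFEB family and mTORC1 control genes it was the member that fell, and 3 rose (for the rises, 0, 0 and 1 without untreated 1, 2 and 3 and 1 without copper 2 or 3, 6 without the libraries that stood apart).

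Genes of the mitochondrial genome rose in 12 of 15 cases, with a median of 1.45 (7 and 6 without untreated 1 and 2 and 7 without copper 2). MT-ND1, a complex I subunit, was at 292, 275 and 292 CPM untreated and 845, 981 and 957 CPM with copper (log2 fold change 1.72 ± 0.19, adjusted p = 0.00021). MT-CO1, the core of cytochrome oxidase that holds copper, was at 327, 286 and 357 CPM untreated and 1504, 1511 and 1196 CPM with copper (log2 fold change 2.14 ± 0.28, adjusted p = 0.00053). The groups were well apart in both. MT-ATP6, MT-ND2 and MT-ND4 rose (log2 fold changes 1.91 ± 0.27, 1.62 ± 0.26 and 1.43 ± 0.28). MT-RNR2, the large ribosomal RNA and the gene with the highest mean CPM, was at 17956, 15140.0 and 19076 CPM untreated and 28899, 35014 and 27799 CPM with copper and rose (log2 fold change 0.84 ± 0.25), and its call ended without untreated 1, 2 or 3 or copper 1, 2 or 3 (adjusted p 0.056 to 0.16). Among the nuclear genes of the respiratory chain none of 50 rose, 2 fell and the median was -0.54 (for the falls, 0 without untreated 1, 2 or 3 and 0, 0 and 5 without copper 1, 2 and 3, 27 without the libraries that stood apart). The members that fell were ATP5F1B and SDHA, with log2 fold changes of -0.90 ± 0.25 and -0.65 ± 0.20. The ATP5F1B call ended without untreated 1, 2 or 3 or copper 1 or 2 (adjusted p 0.084 to 0.1), and the SDHA call ended without untreated 1, 2 or 3 or copper 1, 2 or 3 (adjusted p 0.073 to 0.16). Of 73 cytosolic ribosomal protein genes edgeR called none, and the median was -0.46 (3 without copper 3, 30 without the libraries that stood apart). At an unadjusted p under 0.05 there were 6, all lower with copper, while DESeq2 called 3 and limma voom 1.

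Many genes of proteins that the liver secretes into plasma fell. A lower level in a bulk library can mean less RNA per cell or fewer cells that express the gene, and these cannot be told apart here. Of 15 plasma carriers 9 fell and none rose, with a median of -1.19 (5 without copper 2, 14 without the libraries that stood apart). AHSG, the fetuin that keeps calcium in solution, had the largest loss in CPM, from 8920.5, 9377 and 9319 to 3415, 4066 and 3991 CPM (log2 fold change -1.24 ± 0.26, adjusted p = 0.0088). ALB, the albumin gene, was at 6941, 6834 and 6854 CPM untreated and 3846, 3528 and 3604 CPM with copper and fell (log2 fold change -0.88 ± 0.19), a change of 1.84-fold. Its fetal counterpart AFP was at 5354, 5047 and 4524 CPM untreated and 1259, 1440.1 and 2444 CPM with copper and fell (log2 fold change -1.51 ± 0.33). The ALB call ended without copper 2 (adjusted p = 0.0509) and the AFP call ended without copper 2 (adjusted p = 0.051), and in neither gene did the groups overlap.

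Hormone carriers fell too. TTR, the carrier of thyroxine and retinol binding protein, was at 699, 739 and 659 CPM untreated and 122, 140.3 and 158 CPM with copper (log2 fold change -2.29 ± 0.32, adjusted p = 0.00086). SERPINA7, the thyroxine-binding globulin, was at 94.4, 102 and 80.02 CPM untreated and 5.34, 13.9 and 14.7 CPM with copper (log2 fold change -2.98 ± 0.59, adjusted p = 0.0064). SERPINA6, the carrier of cortisol, fell (log2 fold change -1.86 ± 0.25). Copper 1 was the lowest library in all 3. AGT, the precursor of angiotensin, was at 1625, 1661 and 1563 CPM untreated and 244, 321 and 435 CPM with copper and fell (log2 fold change -2.25 ± 0.34). ASGR1, the receptor by which hepatocytes clear glycoproteins without sialic acid, was at 649.8, 699 and 662 CPM untreated and 40.6, 129 and 161 CPM with copper and fell (log2 fold change -2.58 ± 0.53).

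**Figure D4:**
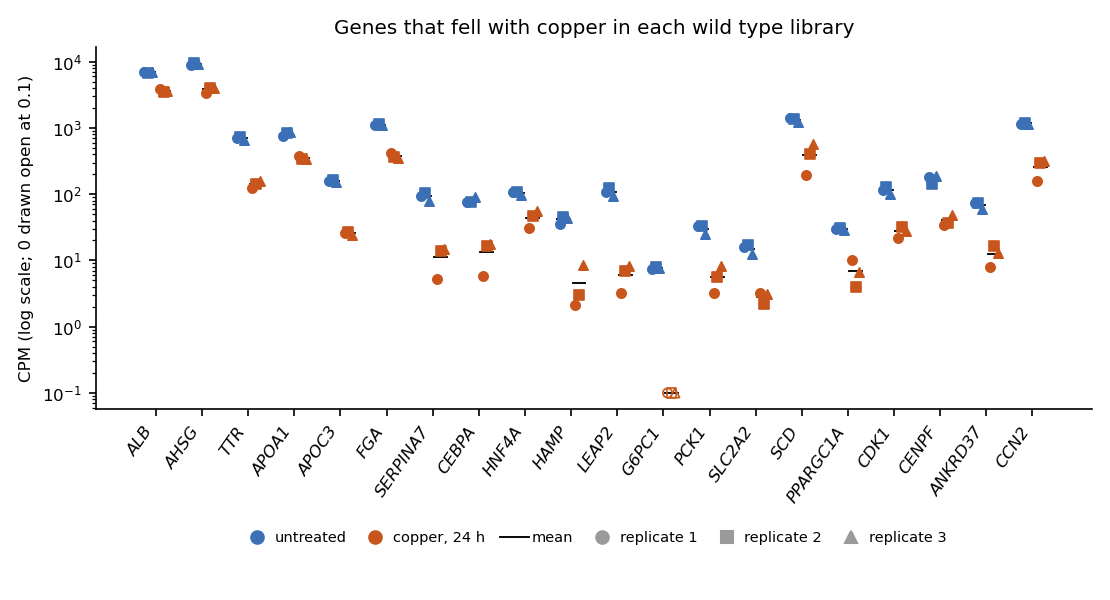
CPM on a log scale in each wild type library for 20 genes that fell with copper, with untreated libraries in blue, copper libraries in orange, replicates by marker shape and a bar at each group mean. Values of 0 are drawn open at 0.1. The groups do not overlap in any of these genes, and all 3 copper libraries of G6PC1 are at 0.

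Of 18 apolipoprotein and lipoprotein assembly genes 8 fell and 1 rose, with a median of -1.07 (for the falls, 5 without untreated 1 or 2 and 5 without copper 2, 14 without the libraries that stood apart). APOC3, which slows the clearance of triglyceride-rich particles, was at 159, 165 and 152 CPM untreated and 25.6, 27.02 and 24.01 CPM with copper (log2 fold change -2.61 ± 0.33, adjusted p = 0.00049). MTTP, which loads lipid on nascent particles, was at 106, 103 and 89.00 CPM untreated and 30.4, 23.1 and 26.7 CPM with copper and fell (log2 fold change -1.87 ± 0.28). Copper libraries of both genes lay close together. APOA1 and APOA5, of the same gene cluster as APOC3, fell (log2 fold changes -1.19 ± 0.21 and -1.57 ± 0.28).

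All 3 fibrinogen chain genes fell. FGA was at 1088, 1140.5 and 1122 CPM untreated and 416, 369 and 351 CPM with copper, FGB at 214, 222 and 204 CPM untreated and 106, 91.5 and 110.0 CPM with copper and FGG at 230.4, 249 and 213 CPM untreated and 86.5, 67.97 and 87.9 CPM with copper. The log2 fold changes were -1.53 ± 0.20, -1.03 ± 0.16 and -1.49 ± 0.24, and the groups were apart in all 3. In the list of 27 fibrinogen, coagulation and complement genes 9 fell and 1 rose, with a median of -0.84 (for the falls, 17 without the libraries that stood apart). SERPINF2, the inhibitor of plasmin, SERPIND1, the heparin cofactor that inhibits thrombin, and the clotting factor gene F11 fell (log2 fold changes -1.97 ± 0.26, -1.47 ± 0.21 and -1.65 ± 0.25). C1S, a protease of the first complement component, was the member that rose, from 3.16, 4.96 and 3.37 to 12.3, 17.9 and 11.6 CPM (log2 fold change 1.87 ± 0.38, adjusted p = 0.0072).

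Factors that maintain hepatocyte genes fell in 5 of 23 cases and rose in 2, with a median of -0.52 (for the falls, 1, 1 and 2 without untreated 1, 2 and 3 and 3, 1 and 3 without copper 1, 2 and 3, 12 without the libraries that stood apart, and for the rises, 1 without untreated 1, 2 or 3 and 1 without copper 1). FOXA2, a pioneer factor of liver, was at 222, 222 and 234 CPM untreated and 83.8, 108 and 131 CPM with copper (log2 fold change -1.04 ± 0.19, adjusted p = 0.0046). HNF4A was at 109, 109 and 98.3 CPM untreated and 30.4, 46.6 and 55.4 CPM with copper and CEBPA at 77.2, 75.2 and 90.97 CPM untreated and 5.87, 16.6 and 17.8 CPM with copper, with log2 fold changes of -1.23 ± 0.33 and -2.55 ± 0.71. In both the groups were apart and copper 1 was lowest. The HNF4A call ended without untreated 1, 2 or 3 or copper 1 or 2 (adjusted p 0.061 to 0.092), and the CEBPA call ended without untreated 1, 2 or 3 or copper 1, 2 or 3 (adjusted p 0.059 to 0.11). NR1I2, the xenobiotic receptor PXR, rose from 2.11, 1.57 and 1.40 to 6.40, 6.97 and 5.42 CPM (log2 fold change 1.88 ± 0.40, adjusted p = 0.0098). SULT2A1, which sulfates steroids and bile acids, was at 136, 159 and 127 CPM untreated and 26.2, 18.3 and 30.2 CPM with copper (log2 fold change -2.46 ± 0.27, adjusted p = 0.00019), and CYP4F3, a fatty acid hydroxylase, fell (log2 fold change -2.15 ± 0.43). Of 13 drug and bile acid genes 4 fell and 1 rose (for the falls, 2 without untreated 2 and 2 without copper 2).

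Genes that make lipid and genes that burn it fell in part. Cholesterol synthesis genes and SREBP targets fell in 7 of 27 cases and rose in none, with a median of -0.80 (4 without untreated 1 or 2 and 4 without copper 1 or 2, 15 without the libraries that stood apart). SQLE, which oxidises squalene, was at 199, 209 and 214 CPM untreated and 111, 121 and 119 CPM with copper (log2 fold change -0.80 ± 0.15, adjusted p = 0.0055). DHCR7, which acts on a late sterol, was at 127, 137 and 122 CPM untreated and 37.4, 58.4 and 53.8 CPM with copper (log2 fold change -1.34 ± 0.28, adjusted p = 0.0089), and the groups were apart in both. Of 19 genes of fatty acid and triglyceride synthesis 5 fell and 2 rose, with a median of -0.57 (for the falls, 2, 3 and 3 without untreated 1, 2 and 3 and 3 without copper 2, 11 without the libraries that stood apart, and for the rises, 1 without untreated 1, 2 or 3 and 1 without copper 1 or 2). SCD, the desaturase that makes oleate, was at 1414, 1339.7 and 1210.4 CPM untreated and 198, 401 and 569 CPM with copper and fell (log2 fold change -1.74 ± 0.37), with copper 1 lowest. GPAM, which starts triglyceride synthesis, fell (log2 fold change -0.89 ± 0.19), and ELOVL1, an elongase of very long chains, rose (log2 fold change 1.01 ± 0.21). Genes of fatty acid oxidation and PPARA targets fell in 11 of 24 cases and rose in none, with a median of -0.82 (4 without untreated 1, 2 or 3 and 3 and 7 without copper 2 and 3, 21 without the libraries that stood apart). PPARGC1A, the coactivator of mitochondrial and fasting genes, was at 30.1, 31.3 and 28.6 CPM untreated and 10.1, 3.92 and 6.58 CPM with copper (log2 fold change -2.11 ± 0.34, adjusted p = 0.0021).

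G6PC1, the phosphatase that lets liver release glucose, was at 7.38, 8.10 and 7.58 CPM untreated and had 86 counts untreated and 0 with copper, so it was at least 17.3-fold lower. PCK1, the gluconeogenic carboxykinase, was at 32.7, 32.9 and 24.99 CPM untreated and 3.20, 5.66 and 8.13 CPM with copper and SLC2A2, the liver glucose transporter, at 15.8, 16.98 and 12.4 CPM untreated and 3.20, 2.18 and 3.10 CPM with copper. They fell (log2 fold changes -2.35 ± 0.40 and -2.37 ± 0.40) with no overlap of the groups. SLC2A3, a high-affinity glucose transporter, was at 1196, 1144 and 1214 CPM untreated and 352, 373 and 388 CPM with copper and fell (log2 fold change -1.65 ± 0.22). GAPDH, often used as a reference gene, was at 7629, 8626 and 8651 CPM untreated and 17872, 12237 and 10707 CPM with copper. All its copper libraries were above all untreated ones, but the gene was not called (log2 fold change 0.74 ± 0.40, adjusted p = 0.23). In the list of 27 genes of glycolysis and glucose metabolism 4 rose and 5 fell, with a median of -0.33 (for the rises, 1 without untreated 1, 2 or 3 and 2 without copper 1 or 2, 7 without the libraries that stood apart, and for the falls, 12 without the libraries that stood apart). The nitrogen enzymes GLUD1 and GLUL, which free and bind ammonia, were at 220.1, 225 and 225 CPM untreated and 62.98, 76.7 and 96.8 CPM with copper and at 138, 136 and 134 CPM untreated and 60.8, 65.8 and 61.97 CPM with copper. They fell (log2 fold changes -1.47 ± 0.19 and -1.09 ± 0.23), and in the list of 18 urea cycle and amino acid genes 4 fell and 1 rose, with a median of -0.40 (for the falls, 2 without untreated 2 or 3 and 2 without copper 2, 9 without the libraries that stood apart).

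Hypoxia targets fell in 8 of 21 cases, with a median of -0.61 (for the falls, 4, 3 and 4 without untreated 1, 2 and 3 and 4 and 3 without copper 1 and 2), while HIF1A was the member that rose. HIF1A, the oxygen-regulated factor, was at 93.6, 90.6 and 106 CPM untreated and 213, 194 and 171 CPM with copper and rose (log2 fold change 1.02 ± 0.23), and its call ended without untreated 1 or 2 (adjusted p 0.054 to 0.057). ANKRD37, a target of that factor, was at 72.8, 74.4 and 60.4 CPM untreated and 8.01, 16.6 and 13.2 CPM with copper (log2 fold change -2.42 ± 0.29, adjusted p = 0.00035). EPO, the gene of erythropoietin, was at 47.98, 44.9 and 50.3 CPM untreated and 16.5, 7.41 and 12.4 CPM with copper and fell (log2 fold change -1.95 ± 0.40). The factor's transcript and these targets thus went opposite ways. P4HA1, a collagen prolyl hydroxylase, fell (log2 fold change -0.92 ± 0.20).

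Mitotic genes fell in 16 of 46 cases and rose in none, with a median of -0.74 (10 without untreated 3 and 10 without copper 2, 29 without the libraries that stood apart). CENPF, a kinetochore protein, was at 180.3, 143 and 185 CPM untreated and 34.7, 37.04 and 48.8 CPM with copper (log2 fold change -2.05 ± 0.23, adjusted p = 0.00022). CDK1, the kinase that starts mitosis, was at 114, 128 and 102 CPM untreated and 21.9, 32.2 and 28.3 CPM with copper (log2 fold change -2.04 ± 0.32, adjusted p = 0.0018), and PLK1, another mitotic kinase, was at 125, 129.8 and 123 CPM untreated and 28.3, 30.9 and 44.5 CPM with copper (log2 fold change -1.83 ± 0.26, adjusted p = 0.00083). The groups were apart in all 3. DLGAP5, CDCA8 and KIF20A, which act on the spindle, fell (log2 fold changes -1.53 ± 0.22, -1.36 ± 0.19 and -2.61 ± 0.41). Of 41 genes of DNA replication 2 rose and 2 fell, with a median of -0.13, or 0.08 without the libraries that stood apart (for the rises, 1 without untreated 1, 2 or 3 and 1 without copper 2, 7 without the libraries that stood apart, and for the falls, 0 without untreated 1, 2 or 3 and 0, 1 and 1 without copper 1, 2 and 3, 8 without the libraries that stood apart). CDC6, which licenses origins, was at 20.6, 20.9 and 21.3 CPM untreated and 48.6, 52.7 and 44.9 CPM with copper and rose (log2 fold change 1.24 ± 0.19).

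Of 10 keratins and biliary markers 4 rose and 1 fell, with a median of 0.50 (for the rises, 2 without untreated 1, 2 or 3 and 2 without copper 2, and for the falls, 0 without untreated 1, 2 or 3 and 0 without copper 1, 2 or 3, 2 without the libraries that stood apart). Of 12 endothelin, CCN and other secreted signals 3 rose and 3 fell, with a median of 0.18 (for the falls, 5 without the libraries that stood apart). KRT19, a keratin of bile duct cells, was at 151, 177 and 162 CPM untreated and 432, 430.1 and 363 CPM with copper (log2 fold change 1.35 ± 0.18, adjusted p = 0.00071), and KRT23 rose (log2 fold change 1.95 ± 0.33). TGFB1 was at 10.5, 15.7 and 17.7 CPM untreated and 75.8, 48.4 and 44.5 CPM with copper and rose (log2 fold change 1.97 ± 0.33). INHBE, a liver activin subunit, was at 56.7, 51.97 and 69.1 CPM untreated and 220.4, 162 and 167 CPM with copper and rose (log2 fold change 1.66 ± 0.32). EDN1, the gene of endothelin, was at 14.8, 16.2 and 15.7 CPM untreated and 2.67, 2.61 and 3.49 CPM with copper and fell (log2 fold change -2.36 ± 0.35). IGFBP3, a carrier of insulin-like growth factors, fell from 14.2, 13.1 and 12.4 to 1.60, 2.61 and 1.94 CPM (log2 fold change -2.63 ± 0.44, adjusted p = 0.0023), and 1 other of 12 genes of IGF2 and its carriers fell (1 without untreated 1, 2 or 3 and 1 without copper 2 or 3, 7 without the libraries that stood apart). Of 10 acute phase and SOCS genes 2 fell, the feedback inhibitor SOCS1 (log2 fold change -3.63 ± 0.79, adjusted p = 0.0099) and the serum amyloid gene SAA4 (log2 fold change -1.12 ± 0.25, adjusted p = 0.01), against 6 that fell without the libraries that stood apart. Of the 12 hepatocyte lineage markers 8 fell and none rose (4 without copper 2), and without the libraries that stood apart all 12 fell. Of 9 mitophagy receptors 1 fell, of 10 replication-dependent histone genes 1 rose, and of 12 lipoylation and cuproptosis genes MTF1 alone was called, as a riser. Histone genes are near-identical copies and uncertain one by one.

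Among the 25 largest rises and falls and the 15 largest gains and losses of CPM were genes outside these lists. LBH, a transcription cofactor, had 74 counts against 1 (123-fold, 95% counting interval 21.3 to 4907), and MLLT11 had 86 against 3 (47.5-fold, 95% counting interval 15.7 to 235). MMP3, a matrix protease, was at 0.264, 0.261 and 0.842 CPM untreated and 10.1, 18.7 and 15.1 CPM with copper and rose (log2 fold change 4.92 ± 0.44). LUCAT1, a long non-coding RNA annotated as antisense, was at 1.05, 1.04 and 0.281 CPM untreated and 8.54, 21.8 and 13.6 CPM with copper and rose (log2 fold change 4.14 ± 0.67). MALAT1, a nuclear non-coding RNA, was at 1043, 1002 and 1169 CPM untreated and 3052, 6411 and 4526 CPM with copper and rose (log2 fold change 2.14 ± 0.44). CLDN14, a tight junction protein, was at 13.4, 15.1 and 10.9 CPM untreated and 1.60, 0.871 and 1.16 CPM with copper and fell (log2 fold change -3.40 ± 0.61). TNFSF10, the death ligand TRAIL, and HAL, the histidine-degrading lyase of liver, fell (log2 fold changes -2.79 ± 0.43 and -2.57 ± 0.53). By biotype 806 of 10137 protein-coding genes rose and 715 fell, against 26 and 4 of 167 long intergenic RNAs and 18 and 7 of 186 antisense genes. Without a stated strand setting, reads of antisense genes and of their partners cannot be told apart.

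The copper effect in wild type cells differed from that in ATP7B KO cells for 545 of 11051 genes by the interaction term (4.93%). The difference is wild type minus KO on the log2 scale. It rests partly on the ATP7B KO untreated replicates 1 and 2, which differed from replicate 3 in genes such as MT2A and SQSTM1. The fit without the libraries that stood apart gave other sizes for several genes. The count was 1039 in that fit, 14, 14 and 25 without untreated 1, 2 and 3, and 40 and 62 without copper 1 and 2. The fit without the libraries that stood apart keeps 1 KO untreated library, which is assumed to vary like the other groups. Its p-values for the difference may be too small, so only sizes are given for single genes. EDN1 fell in wild type cells, whereas the KO libraries held 0, 0 and 0.610 CPM before and 10.3, 7.95 and 13.5 CPM after copper. Its size depends on the prior count of the fit, since the KO untreated libraries held almost no counts. The difference was -7.26 ± 0.65 (adjusted p = 0.00083), and -6.48 without the libraries that stood apart. CCN2 also went opposite ways, at 45.7, 78.8 and 113 CPM in KO untreated and 301, 254 and 260.0 CPM in KO copper libraries. Its difference was -4.06 ± 0.44 (adjusted p = 0.0026), and -3.34 without those libraries. INHBE rose in wild type cells by 1.66 ± 0.32 and had a log2 fold change of -1.22 ± 0.33 in KO cells. The difference for INHBE was 2.87 ± 0.46 (adjusted p = 0.017), and 1.69 without those libraries. Its call ended without untreated 1 or 2 (adjusted p 0.064 to 0.067).

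Another set of genes rose in both lines, with smaller fold changes in wild type cells. GADD45B rose (log2 fold change 2.19 ± 0.30) in wild type and had a log2 fold change of 5.81 ± 0.37 in KO cells, a difference of -3.62 ± 0.45 (adjusted p = 0.0037). MAFF had log2 fold changes of 1.93 ± 0.24 and 4.82 ± 0.31 in wild type and KO cells, and the interleukin gene IL11 had 3.90 ± 0.36 and 7.04 ± 0.46. ANKRD37 fell in wild type cells and had a log2 fold change of 0.71 ± 0.33 in KO cells (adjusted p for the difference 0.0085). Without the libraries that stood apart the adjusted p of the difference was 4.9e-06 for GADD45B, 6.4e-06 for MAFF, 0.0031 for IL11 and 3.7e-07 for ANKRD37. The IL11 call ended without untreated 1, 2 or 3 or copper 1 or 2 (adjusted p 0.052 to 0.093). EGR1 went the other way, with 4.88 ± 0.21 in wild type and 3.47 ± 0.22 in KO cells (adjusted p for the difference 0.034). That call ended without untreated 1, 2 or 3 or copper 1 or 2 (adjusted p 0.066 to 0.097). For the chaperone genes HSPH1 and HSPA6 the difference was 1.01 ± 0.34 and 0.91 ± 0.70 (adjusted p 0.081 and 0.43), and for MT1X and MT2A it was 0.84 ± 0.43 and -2.10 ± 1.09 (adjusted p 0.18 and 0.19), none of which passed. When the libraries that stood apart were left out, these differences were 0.43 for HSPH1, -1.07 for HSPA6, 0.94 for MT1X and -0.34 for MT2A. That of HSPA6 turned its sign. These genes do not stand for their families. By the interaction term the chaperone genes DNAJB1 and BAG3 did differ (-1.88 and -1.81, adjusted p 0.045 and 0.041), though most fits without 1 wild type library lost both calls. For MT1G and MT1E the difference was -0.88 ± 0.87 and -1.12 ± 1.17 (adjusted p 0.48 and 0.51). Without the libraries that stood apart it was 0.67 and 0.72, so both turned their sign. ATP7B itself was at 9.01, 2.05 and 11.6 CPM in KO untreated and 3.92, 4.19 and 6.77 CPM in KO copper libraries, and since 3′ tags can lie outside the edit, this does not check the KO label.

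**Figure D5:**
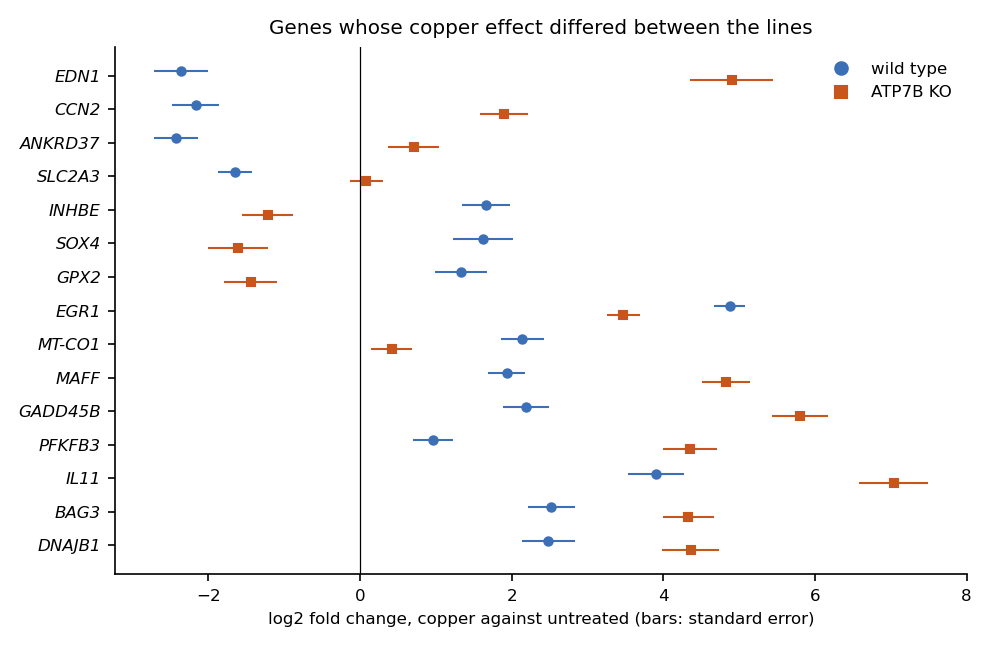
Log2 fold change of copper over untreated with its standard error in wild type cells (blue circles) and ATP7B KO cells (orange squares) for 15 genes whose copper effect differed between the lines by the interaction term. EDN1, CCN2 and ANKRD37 lie below 0 in wild type and above 0 in KO cells, and INHBE lies the other way round.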

How the data were processed

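RNA of each library was made into a QuantSeq 3′ library from 100 ng of total RNA and read as 75 bp single-end reads on a NextSeq500, per the labels' protocols. The deposited values are whole-number counts of reads per Ensembl gene, which the authors made with STAR 2.3.0 and HTSeq on hg19, per the submitters' processing notes. Not given in the sources used here are the annotation release, the strand setting and any filter. Counting whole reads at the 3′ end gives about 1 tag per transcript, so CPM is not divided by length, and reads that fit several copies of a gene may be missing or misplaced.

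The test was edgeR's (4.0.16, in R 4.3.3) quasi-likelihood test (robust, TMM scaling, filterByExpr) fitted to all 12 libraries in 4 groups, with Benjamini-Hochberg adjustment over 11051 genes and a threshold of 0.05. The biological coefficient of variation, shared by all groups of a fit, was 29.1% with 12 libraries, 19.1% in the 6 wild type libraries alone and 8.45% without the libraries that stood apart. Standard errors were taken as the size of the log2 fold change over the root of the F statistic. Of 47634 gene IDs 45776 had a symbol, which held 99.51% of the counts. Chi-square per degree of freedom was 2.06 or higher in each of the 6 pairs of wild type replicates, so none agreed within counting noise, and KO pairs were not compared.

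The interaction term tested the copper effect in wild type minus that in ATP7B KO cells. The gene lists and the genes compared were chosen with earlier results of these data known. Called genes with a mean of at least 5 CPM and no overlap between the groups were ranked. Named genes were the 25 largest rises and falls and the 15 largest gains and losses of CPM among these. For them the lack of overlap was a condition of choice and supports nothing. Also named, in each list, were called members (the first 6 each way by adjusted p in lists of more than 26) with 3 that were not called. Other members that were named, and the genes set against ATP7B KO cells, were chosen after their values were seen. A count of 0 was bounded with 3 counts over the group, and ratios with 1 to 3 counts carry a 95% interval that covers counting error only. Promoters are from RefSeq's GRCh38.p14 table, which held 8580 of 10911 tested symbols.

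In simulated counts for these 11051 genes, 100 genes were changed 2-fold and 100 were changed 4-fold. Of these 6% and 78% were recovered, and 6 unchanged genes were called. Far fewer genes were changed than the 1648 called in the data. The Benjamini-Hochberg cutoff depends on that number, so these shares do not give the sensitivity in the data. Alternatives were DESeq2 1.42.0, limma 3.58.1 voom, RLE scaling, no filter, a 2-fold threshold and the wild type libraries alone. Others were a block of the replicate number within each line, and leaving libraries out. Results for a few genes are not reported here.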

Additional observations from a re-analysis of the deposited data

Results flagged for a closer look

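The named genes whose copper effect differed between wild type and ATP7B KO cells by the interaction term are given here as wild type minus KO on the log2 scale. The effect was lower in wild type cells for EDN1 (-7.26), CCN2 (-4.06), GADD45B (-3.62), the glycolytic regulator PFKFB3 (-3.39), ANKRD37 (-3.13), IL11 (-3.13) and MAFF (-2.89). It was also lower for DNAJB1 (-1.88), FNIP2 (-1.84), BAG3 (-1.81) and SLC2A3 (-1.73). The effect was higher in wild type cells for SOX4 (3.24), INHBE (2.87), the glutathione peroxidase gene GPX2 (2.77), NR1I2 (2.30), MT-CO1 (1.72), FGG (1.53), EGR1 (1.41), HIF1A (1.31), JDP2 (1.23), GPAM (1.21) and FGA (1.19). Without the libraries that stood apart the size moved by more than 1.5 times for 9 of these 22 genes, to -1.09 for BAG3, -1.21 for DNAJB1, 1.002 for FGG, -1.05 for FNIP2, 1.52 for GPX2, 0.63 for HIF1A, 1.69 for INHBE, 0.99 for MT-CO1 and 1.57 for SOX4.

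The difference passed the threshold for EDN1, CCN2, GADD45B, PFKFB3, ANKRD37 and MAFF in each of the 6 fits that leave out 1 wild type library. It also passed for them by DESeq2 and limma voom. For INHBE it was lost without untreated 1 or 2, and for the other 15 in 4 or more of those 6 fits. None of the 22 passed with the replicate number within each line as a block, where no gene of the 11051 did. That block leaves fewer degrees of freedom for the spread.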

How the results depend on the processing

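The count of 1648 genes called in wild type cells was 4527 in 5 wild type libraries alone (without copper 1, chosen after seeing the data), 3044 in the 6 alone, 3999 without ATP7B KO untreated replicates 1 and 2, 4701 without the libraries that stood apart, and 743 to 1405 when 1 wild type library was left out. It was 2116 with DESeq2, 1881 with limma voom, 1666 with RLE scaling, 2135 of 24210 genes with no filter and 1210 with a 2-fold threshold. The share of calls that rose was 55.2%, against 63.8% without copper 2. The count of 545 for the difference between the lines was 1831 with DESeq2, 163 with limma voom, 2366 with no filter, 104 without ATP7B KO untreated replicates 1 and 2, 1039 without the libraries that stood apart, and 14 to 710 when 1 wild type library was left out. Of the 171 called genes named for wild type cells, DESeq2, limma voom and the fit without the libraries that stood apart kept every call, RLE scaling lost 1, no filter 5, and leaving out 1 library 7 to 19. No named gene changed sign where it was called. The cause of these shifts was not tested.

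Same-numbered untreated and copper libraries had deviations correlated at -0.0578, -0.0151 and -0.2001, and differently numbered ones at -0.1107 to 0.1602. The labels state no pairing by replicate number. Deviations from a mean of 3 libraries depend on each other, so this check cannot exclude a pairing. With the replicate number within each line as a block, which leaves fewer degrees of freedom, 654 genes were called, 653 of them among the 1648. For the difference between the lines 0 were called. Of the 171 named calls 27 were lost under the block.

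The copper libraries hold 1873703 to 2581954 counts, so genes near 1.60 CPM rest on 3 counts in the shallowest. Labels give neither the dose of copper nor whether cultures were separate, and 1 time point was sampled. Near-identical copies and antisense genes are uncertain, and a call that was missed does not show that a gene kept its level.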
